A study of Mus musculus with 6 samples.

Results

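The tripartite motif (TRIM) family was followed across untreated and interferon-gamma-treated cells of the mouse line IEC 4.1. Members were the rows of all 6 gene tables whose symbol was Trim followed by a digit, and 48 of the 14701 genes in each table met this rule. Of these, 6 were listed as the chromosome 7 cluster compared here (Trim5, Trim6, Trim12c, Trim30a, Trim34a and Trim34b), and the other 42 are called outside it. The 42 include Trim12a, which lies within the same stretch, and Trim30d, which starts just past it, both too low to test. Total RNA was sequenced from 3 control libraries, replicates 2, 3 and 4, which received no interferon-gamma, and from 3 treated libraries, replicates 1, 2 and 4, given 10 ng/ml for 6 h. All 6 libraries came from the same line, which the labels call intestinal epithelium, and no allele, transgene or other agent is named for either group. The labels do not say whether replicates were separate cultures, so the p-values measure only the spread between these libraries, which may be technical.

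The libraries held 17490689 to 18678543 read counts each. The labelled tissue did not match its defining markers. Of 12 epithelial markers, 8 had a row and none passed the low-count filter, with summed levels of 0.62 to 0.99 TPM (the deposited level, scaled for gene length and library) in controls and 0.49 to 0.65 after treatment, while Epcam, Cdx2, Cldn3 and Cldn7 had no row. The mesenchymal list summed to 12284.36 to 13073.73 TPM in controls and 12066.82 to 13349.74 after treatment. S100a4 was the highest at up to 9885.22, so these sums rest largely on that gene, and Thy1 had no row. Of the 9 tested genes of this list 3 were higher and 5 lower. Leukocyte markers summed to 26.94 to 32.04 and 23.83 to 24.58 TPM, with Cd14 the highest at up to 28.3 and neither of 2 tested genes past the threshold, and Cd3e, Adgre1, Itgam and Nkg7 were among those with no row. Striated muscle markers, led by Tnnt2, went from 32.42 to 35.56 down to 15.97 to 18.2 TPM, with 2 of 3 tested genes lower, and Actn2, Ttn, Myh6, Myh7 and Ckm had no row. The part of these markers in the TRIM values was not tested. In such bulk samples, fewer cells of a type and less RNA per cell cannot be told apart.

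TRIM proteins carry a RING finger, one or more B-boxes and a coiled coil, in that order, and most act as ubiquitin ligases. What differs is the carboxy end. Many end in a PRY-SPRY or SPRY domain that binds a partner, such as a viral capsid or an antibody, and this subgroup has expanded in tandem clusters in rodents. Others end in the PHD finger and bromodomain of the TIF1 chromatin corepressors, in NHL repeats, in a microtubule-binding COS box or in other modules. Interferon-gamma acts on promoters with gamma-activated (GAS) elements and induces IRF1, which binds interferon-stimulated response elements (ISRE). Several TRIM genes are known interferon-stimulated genes, and others set the strength of the sensing pathways that lead to interferon.

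Promoters are shown for the core pattern of an ISRE, which is GAAA, any 2 bases and GAAA again, because 5 of the 6 TRIM genes with the largest rises below hold it. RefSeq promoters (250 bases before to 50 after the start, GRCm38.p6) were searched on both strands. Each line gives 30 bases in the direction of transcription with the match in capitals. A match that reads TTTC, any 2 bases, TTTC is the same pattern on the other strand.
Trim21 (chr7:102565450-102565479, minus strand): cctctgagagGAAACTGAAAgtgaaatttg
Trim34a (chr7:104244457-104244486, plus strand): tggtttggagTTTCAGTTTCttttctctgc
Trim5 (chr7:104288136-104288165, minus strand): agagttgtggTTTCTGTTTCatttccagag
Trim12c (chr7:104353359-104353388, minus strand): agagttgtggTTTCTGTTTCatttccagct
Trim30a (chr7:104465210-104465239, minus strand): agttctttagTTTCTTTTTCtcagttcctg
Trim26 (chr17:36836976-36837005, plus strand): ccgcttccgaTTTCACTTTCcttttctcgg
The match began 49 bases before the start in Trim5, 29 before it in Trim12c, 36 before it in Trim30a and 160 before it in Trim26. It began at base 14 after the start in Trim21 and at base 11 in Trim34a. In Trim21 a second match, GAAAGTGAAA, overlaps the one in capitals, and Trim26 also has 2 overlapping matches. A second RefSeq promoter of Trim30a, at an internal start, holds a match from base 3 after that start. The Trim5 and Trim12c windows were the same at 28 of 30 bases. The window of Trim12a, a neighbour too low to test, was the same as that of Trim5 at 30 of 30 bases, and that of Trim30d, likewise too low to test, was the same as that of Trim30a at 30 of 30.

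The longer stretch around 3 of these matches shows how far the Trim5 and Trim12c promoters share their letters, and how Trim30a differs. Each line gives 100 bases, with the same pattern in capitals.
Trim5 (chr7:104288107-104288206, minus strand): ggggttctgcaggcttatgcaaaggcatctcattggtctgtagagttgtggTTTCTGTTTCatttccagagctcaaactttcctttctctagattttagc
Trim12c (chr7:104353350-104353449, minus strand): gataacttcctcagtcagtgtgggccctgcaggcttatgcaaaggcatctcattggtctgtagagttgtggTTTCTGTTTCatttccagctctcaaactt
Trim30a (chr7:104465194-104465293, minus strand): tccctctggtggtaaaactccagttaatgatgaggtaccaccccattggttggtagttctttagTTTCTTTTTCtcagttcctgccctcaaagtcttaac

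After interferon-gamma 13 of the 37 tested TRIM members rose and 9 fell, and 15 were not called (edgeR quasi-likelihood test, Benjamini-Hochberg adjusted p under 0.05 over 11423 genes). Over all genes tested, 19.9% were called higher and 18.1% lower, beside 35.14% and 24.32% of the tested TRIM members. Of the 13 risen members, 4 met the low-count filter in every treated library but not in every control. Of the 9 fallen, Trim66 met it in every control but not in every treated library. The filter therefore favoured these directions of call. Among the 32 members that passed in every library of both groups 9 rose and 8 fell (28.12% and 25%), against 19.5% and 18.4% of 10979 such genes. Rises of at least 2-fold were called for 11 of the 37 tested members, against 4.03% of all genes, and rises of at least 4-fold for 6, against 1.99%. Among the 32 members that passed in both groups these counts were 7 and 3, and the share of all such genes was not counted. A fall of at least 2-fold was called for 1 member, Trim66, against 1.05% of all genes. The family's median log2 fold change was 0.06, beside 0.01 for all genes. The division between rises and falls depended on scaling: with upper-quartile or total-count scaling 13 members rose and 14 fell.

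**Figure D1:**
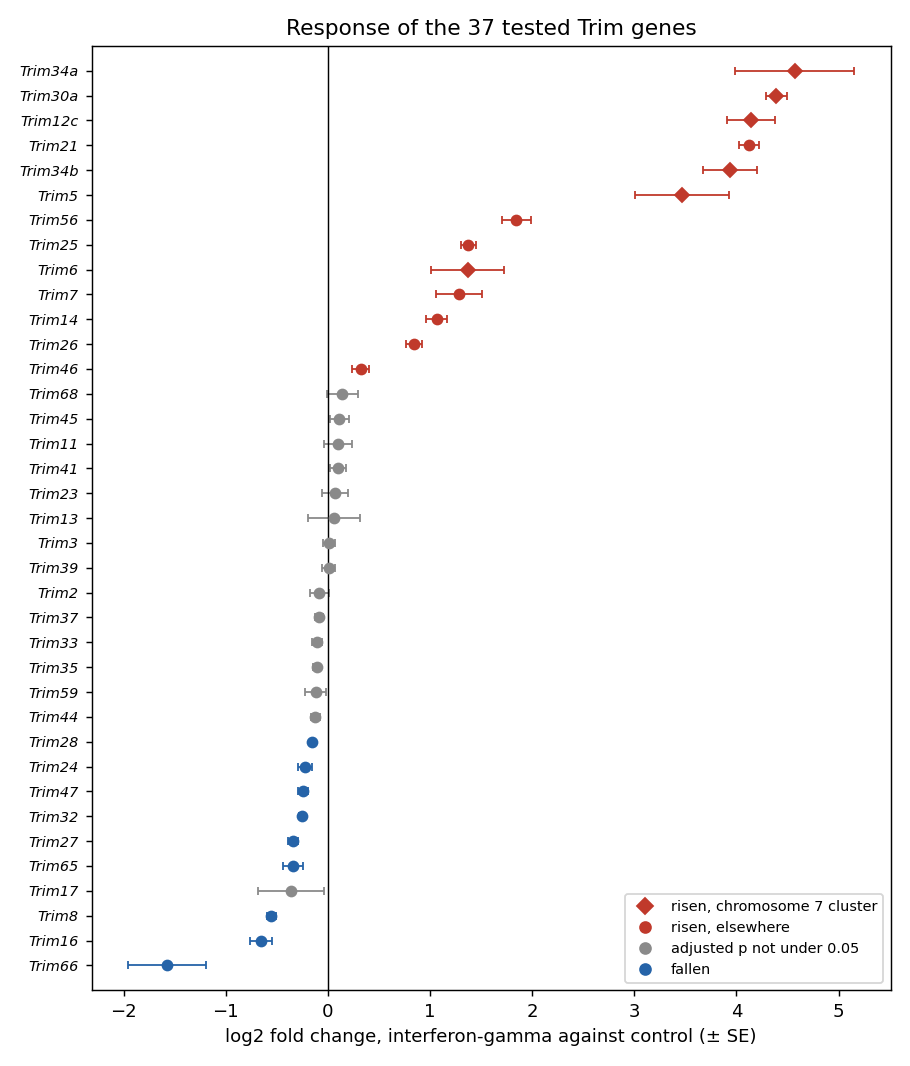
log2 fold change (interferon-gamma over control, edgeR) of the 37 tested Trim genes, ordered by size, with bars for the standard error from the 3 libraries of each group. Trim21 and 5 genes of the chromosome 7 cluster (diamonds) lie at the upper end with Trim6 lower, 15 genes without a call sit around 0, and Trim66 lies lowest.

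The 6 cluster genes lie within 246.4 kb, at chr7:104218795-104465193 (GRCm38.p6), and all 6 were called higher, 5 of them by at least 4-fold. Trim34a, Trim34b, Trim5 and Trim6 met the low-count filter in every treated library but not in every control, so a call among them was tied to a rise. The tie was weakest for Trim6, with 21 and 18 reads in control replicates 3 and 4. Neither the count of 6 nor the cluster's median therefore supports a statement on the cluster as a whole. Levels of single genes are given as CPM, read counts scaled to the library size after TMM scaling, which does not correct for gene length.

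Trim30a, the mouse gene for a SPRY protein known to restrain Toll-like receptor signalling to NF-kappaB, measured 0.899, 0.842 and 1.05 CPM in control replicates 2, 3 and 4 and 20.8, 18.2 and 20.4 CPM in treated replicates 1, 2 and 4. Every treated library was above every control, and the log2 fold change was 4.39 (SE 0.10, edgeR adjusted p = 1.969e-16). Trim12c, one of the rodent relatives of the capsid-binding TRIM5, measured 1.97, 1.71 and 2.95 CPM in controls and 37.5, 37.7 and 42.8 CPM after treatment. This was the most abundant cluster gene in both groups on the per-length scale, at a mean of 1.08 TPM (SD 0.342, n = 3) in controls and 17.6 TPM (SD 1.19, n = 3) after treatment. Its log2 fold change was 4.15 (SE 0.24, edgeR adjusted p = 5.084e-17), with no overlap between groups.

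Trim34a and Trim34b are the mouse copies of TRIM34, a relative of TRIM5. Trim34a measured 0.0691, 0.124 and 0.533 CPM in controls, from 1.3, 2.32 and 10.1 estimated reads, and 6.33, 6.00 and 4.49 CPM after treatment. Control replicate 4 stood above the other controls yet far under each treated library. The log2 fold change of Trim34a was 4.57 (SE 0.58, edgeR adjusted p = 2.887e-10), and without control replicate 4 it was 6.01, so its size rests on that library while its call does not. Trim34b measured 0.0904, 0.143 and 0.259 CPM in controls and 2.91, 2.92 and 2.58 CPM after treatment. The groups did not overlap, and its log2 fold change was 3.94 (SE 0.26, edgeR adjusted p = 1.247e-09).

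Trim5, the mouse gene named for the primate restriction factor, had 2, 0 and 4 reads in controls and 24.41, 21.61 and 19.95 after treatment. Its log2 fold change of 3.47 (SE 0.46, edgeR adjusted p = 4.345e-06) became 4.37 without control replicate 4, and with so few reads its level in controls is poorly fixed. Trim6, a ligase that makes unanchored ubiquitin chains in interferon signalling, had the smallest rise of the cluster. Its values were 0.479, 1.12 and 0.950 CPM in controls and 1.89, 2.70 and 2.00 CPM after treatment, a log2 fold change of 1.37 (SE 0.36, edgeR adjusted p = 0.0003247). The lowest treated library of Trim6 was still above the highest control.

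Similar sequence can move reads between these genes. Estimated counts were not whole numbers in at least 1 library for 5 of the 6 cluster genes, Trim6 being the exception, so their separate values are uncertain. With the counts of look-alike members summed, a setting chosen after seeing the data, Trim12c with Trim12a and Trim5 had a log2 fold change of 4.07 (edgeR adjusted p = 6.151e-17), Trim30a with Trim30d one of 4.26 (2.446e-16) and Trim34a with Trim34b one of 4.35 (1.205e-11). The rise was thus present in each summed group, whichever member the reads came from. Over the treated libraries Trim12c held 2085.17 reads, beside 65.97 for Trim5 and 20.85 for Trim12a. Trim30a held 1050.69, beside 17.31 for Trim30d. Those sums therefore largely repeat Trim12c and Trim30a, and they cannot show whether Trim5 rose by itself.

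Little else in that stretch of chromosome 7 was measured. Within 500 kb of the cluster RefSeq lists 76 genes that are not named Trim, of which 50 code for protein and 37 of those are olfactory receptors. Of these, only Usp17la, Usp17lb and Usp17le, deubiquitinase genes, had a row, and only Usp17la was tested, with a log2 fold change of 0.55 (edgeR adjusted p = 0.2256).

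**Figure D2:**
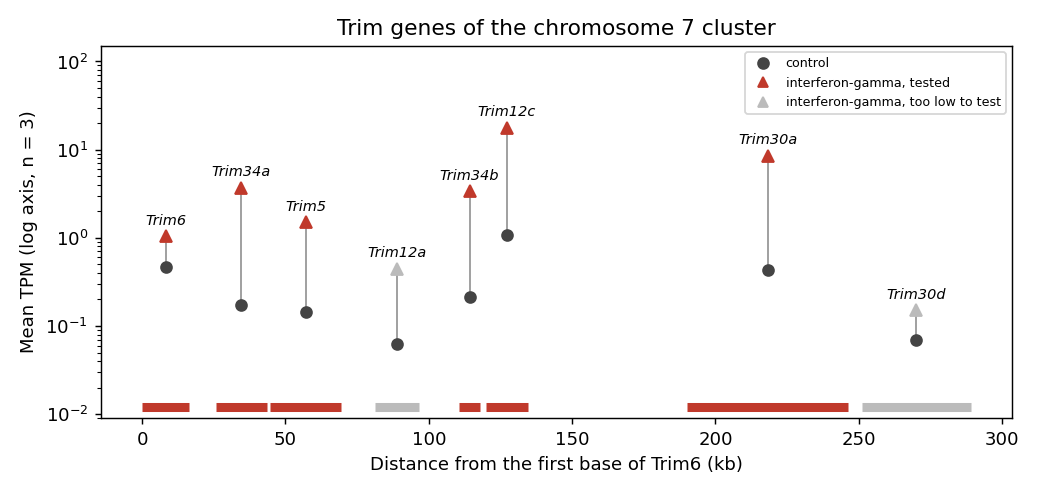
Mean TPM (log axis, n = 3) of the 6 cluster genes and of Trim12a and Trim30d in control (circles) and interferon-gamma (triangles) libraries, at the middle of each gene in kb from the first base of Trim6; bars at the foot span each gene. Trim12c reaches the highest level, and Trim12a and Trim30d (grey) were too low to test.

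Trim21 lies on chromosome 7 too, at chr7:102557920-102565482, apart from the cluster. It encodes the cytosolic Fc receptor that binds antibody-coated virus and directs it to the proteasome. It measured 1.91, 2.34 and 2.22 CPM in controls and 39.7, 35.1 and 38.1 CPM after treatment, a log2 fold change of 4.12 (SE 0.10, edgeR adjusted p = 3.562e-18). The libraries of each group lay close together and far from the other group. Of the 5 tested chromosome 7 members outside the cluster, Trim21 was the 1 that rose, Trim28 and Trim66 fell, and Trim3 and Trim68 were not called.

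For 4 pairs of TRIM genes outside the cluster that share a chromosome, the 2 members were compared with each other. These pairs were not planned in advance and are not all the neighbours, so their ratios are a description. Trim17 and Trim11, side by side on chromosome 11 and both uncalled, were left out. Trim15 and Trim40 lie nearer to Trim26 than Trim39 does but were too low to test. Trim68, a SPRY ligase 112.1 kb from Trim21, measured 3.03, 2.66 and 2.64 CPM in controls and 2.73, 3.69 and 2.77 CPM after treatment, with overlapping groups. The log2 ratio of Trim21 to Trim68 rose by 4.00 from control to treated libraries. For Trim7 against Trim41, 7.9 kb apart on chromosome 11, the ratio rose by 1.23, and for Trim26 against Trim39, 565.1 kb apart on chromosome 17, by 0.84. Trim65 and Trim47, 14.5 kb apart on chromosome 11, both fell, and their ratio changed by -0.11. In the first 3 pairs every treated ratio lay above every control ratio. The two-sided exact permutation p was 0.1 (adjusted 0.133 over 4 pairs), the smallest that 3 against 3 libraries allow. Each of these 3 pairs set a risen member against an uncalled one and was chosen with results known. The separation therefore followed from the choice, and this p decides nothing. For Trim65 and Trim47 the exact permutation p was 0.2 (adjusted 0.2).

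Outside the cluster 7 of 31 tested members rose (22.58%, against 19.9% of all genes) and 9 fell (29.03%, against 18.1%). The share of rises was thus near that of all genes. The median log2 fold change of the 31 was -0.09 beside 0.01 for all genes. Beside Trim21, the rises were in Trim56, Trim25, Trim7, Trim14, Trim26 and Trim46, all expressed in controls at 1.31 TPM or more.

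Trim25, the ligase best known for activating the RNA sensor RIG-I, was the most abundant of the 13 risen genes. It measured 73.0, 83.2 and 85.3 CPM in controls and 210.4, 203.4 and 212.3 CPM after treatment, a log2 fold change of 1.37 (SE 0.07, edgeR adjusted p = 2.743e-14). On the per-length scale its mean went from 24.9 TPM (SD 2.89, n = 3) to 59.8 TPM (SD 2.49, n = 3), and its rank among the 48 members from 9 to 3. Trim56, an antiviral ligase of the STING and Toll-like receptor pathways that has no SPRY domain, measured 16.8, 15.6 and 18.7 CPM in controls and 70.8, 59.7 and 52.6 CPM after treatment. Its log2 fold change was 1.85 (SE 0.15, edgeR adjusted p = 7.944e-13), and even its lowest treated library was far above the controls.

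Trim26, a ligase that acts on IRF3 and the TBK1 complex, measured 42.7, 39.1 and 44.8 CPM in controls and 77.2, 79.4 and 70.9 CPM after treatment, with a log2 fold change of 0.84 (SE 0.08, edgeR adjusted p = 7.444e-10). Trim14, an adaptor of MAVS signalling that lacks a RING finger, measured 3.06, 3.52 and 3.46 CPM in controls and 7.83, 6.42 and 6.84 CPM after treatment. Both genes had separate groups, and the log2 fold change of Trim14 was 1.06 (SE 0.10, edgeR adjusted p = 1.474e-06). Trim7, first described as a partner of glycogenin, measured 1.28, 2.08 and 2.06 CPM in controls and 4.06, 4.73 and 4.42 CPM after treatment (log2 fold change 1.28, SE 0.23, edgeR adjusted p = 7.064e-06). Trim46, which organises microtubules at the start of the axon, had the smallest called rise, from 20.7, 17.4 and 19.5 CPM to 24.2, 25.1 and 22.7 CPM (log2 fold change 0.32, SE 0.08, edgeR adjusted p = 0.00286). Among the 13 rises, that of Trim46 alone was not called when tested against a change of 1.5-fold.

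**Figure D3:**
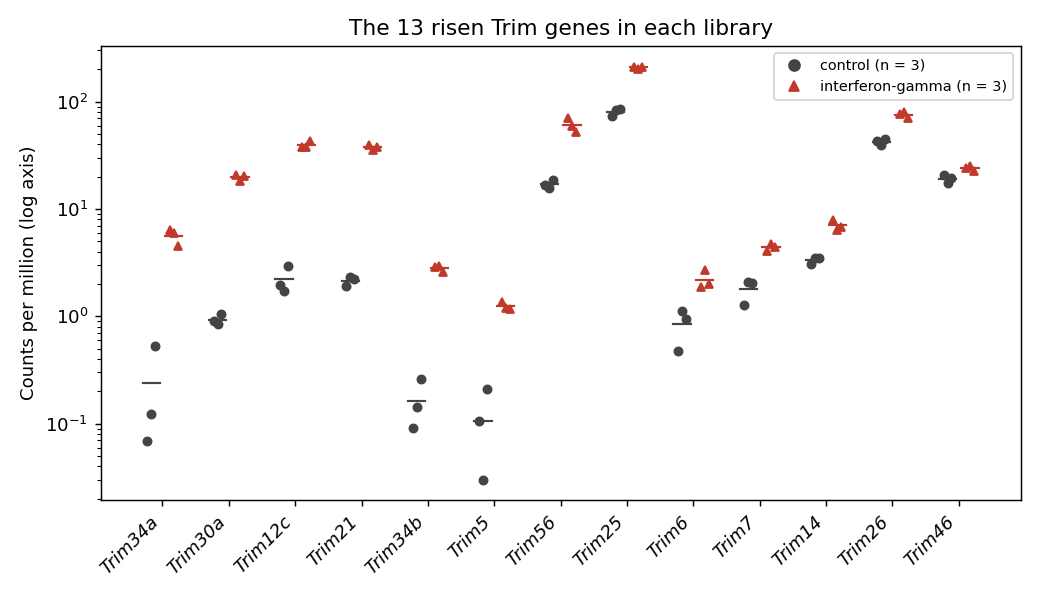
CPM (log axis) of the 13 risen Trim genes in each control library (grey) and each interferon-gamma library (red), with lines at the group means; the value of 0 for Trim5 in control replicate 3 is drawn at 0.03. In each gene the treated libraries lie above the controls, with the widest gaps in Trim34a, Trim30a, Trim12c and Trim21.

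Apart from that of Trim66, the falls were small. Trim28, or KAP1, the corepressor that KRAB zinc finger proteins bring to retroelements, was the most abundant TRIM gene in both groups, with a mean of 170.5 TPM (SD 6.73, n = 3) in controls and 142.1 TPM (SD 4.25, n = 3) after treatment. It measured 308.1, 312.2 and 304.5 CPM in controls and 277.7, 281.6 and 273.4 CPM after treatment. The groups did not overlap although the change was slight, at a log2 fold change of -0.15 (SE 0.02, edgeR adjusted p = 0.01628). Trim24, the TIF1 member that is a coregulator of nuclear receptors and a p53 ligase, measured 32.8, 37.1 and 33.3 CPM in controls and 28.7, 28.4 and 31.3 CPM after treatment (log2 fold change -0.23, SE 0.07, edgeR adjusted p = 0.01528). With control replicate 3 left out the fall of Trim24 was -0.18 and no longer called (adjusted p = 0.08208), and the same held for treated replicate 2 (-0.20, adjusted p = 0.07151). Trim66, the TIF1 member best known from testis, measured 1.65, 2.08 and 1.53 CPM in controls and 0.946, 0.440 and 0.353 CPM after treatment. It had the steepest fall of the family, with a log2 fold change of -1.58 (SE 0.38, edgeR adjusted p = 0.0003073). Trim66 met the low-count filter in every control but not in every treated library. Trim33, the SMAD4 ligase and the remaining TIF1 gene, had a log2 fold change of -0.11 (edgeR adjusted p = 0.1424) and was called lower with upper-quartile and total-count scaling.

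Trim8, which binds SOCS1 and TAK1 and so touches both JAK-STAT and NF-kappaB signalling, measured 91.2, 92.9 and 87.5 CPM in controls and 63.7, 62.3 and 58.7 CPM after treatment. Its fall had the smallest adjusted p of the 9 (log2 fold change -0.56, SE 0.04, edgeR adjusted p = 5.556e-08). Trim16, which lacks a RING finger and acts with galectin-3 in autophagy of damaged membranes, measured 17.1, 15.8 and 17.5 CPM in controls and 11.5, 11.1 and 9.30 CPM after treatment (log2 fold change -0.65, SE 0.10, edgeR adjusted p = 1.029e-05). Trim27, a partner of the WASH complex on endosomes, measured 110.7, 108.2 and 101.1 CPM in controls and 81.1, 87.2 and 84.2 CPM after treatment (log2 fold change -0.34, SE 0.05, edgeR adjusted p = 3.484e-05). In all of these the lowest control was above the highest treated library.

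The other falls were in Trim32, the NHL ligase mutated in a limb-girdle muscular dystrophy (log2 fold change -0.26, edgeR adjusted p = 0.00235), in Trim47 (-0.24, adjusted p = 0.00254) and in Trim65, a ligase of the RNA sensor MDA5 (-0.34, adjusted p = 0.03446). Trim32 went from 38.9, 37.3 and 39.4 CPM to 31.8, 32.7 and 32.4 CPM, and Trim47 from 62.8, 59.5 and 62.4 CPM to 52.8, 54.2 and 49.0 CPM. Trim65 went from 6.38, 6.29 and 6.44 CPM to 5.06, 5.56 and 4.42 CPM. Its call was lost when any 1 of the 3 controls or treated replicate 1 or 4 was left out, with adjusted p from 0.05108 to 0.1435, and under DESeq2 (0.1141). Against a change of 1.5-fold, Trim66 was the only fall still called.

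**Figure D4:**
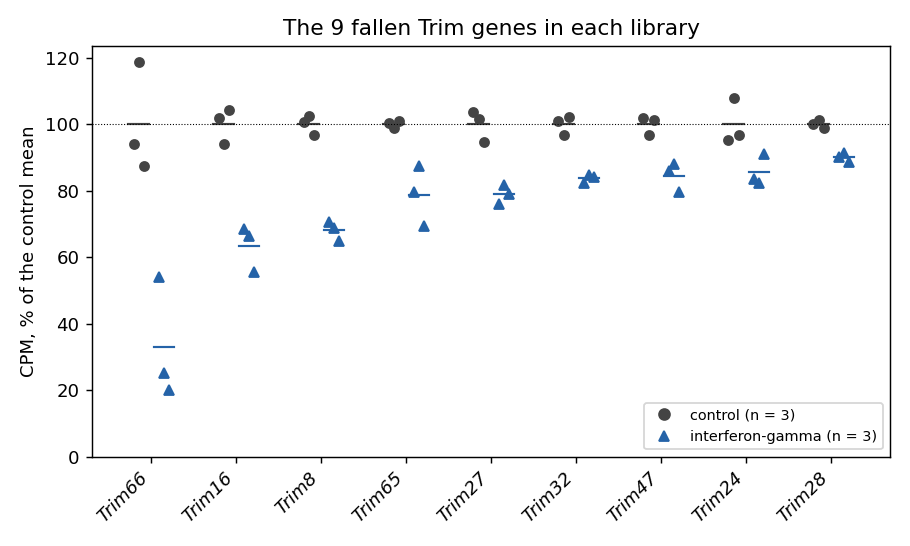
CPM of the 9 fallen Trim genes as a percentage of each gene's control mean (dotted line), in each control library (grey circles) and each interferon-gamma library (blue triangles), with lines at the group means. The treated libraries lie under the controls in each gene, and the distance between the group means is widest in Trim66 and narrowest in Trim28.

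For 15 tested members no change was called, with log2 fold changes from -0.36 in Trim17 to 0.14 in Trim68. They included the second most abundant member, Trim59, a transmembrane ligase, at 168.0, 188.5 and 169.4 CPM in controls and 149.3, 152.3 and 182.2 CPM after treatment. Treated replicate 4 lay within the range of the controls, and without it Trim59 was called lower (log2 fold change -0.22, edgeR adjusted p = 0.001862). Trim17, at 1.90, 1.58 and 2.04 CPM in controls and 2.09, 1.27 and 0.956 CPM after treatment, was called lower without treated replicate 1 (-0.75, adjusted p = 0.03307). In Trim35 and Trim44 all treated libraries lay under the controls without a call, at log2 fold changes of -0.11 (SE 0.03, edgeR adjusted p = 0.09229) and -0.12 (SE 0.04, adjusted p = 0.1168). Non-overlap with the treated libraries lower was found in 11 tested members, against 23.3% of all genes, and with the treated libraries higher in 13, against 24.7%.

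The other uncalled members lay near 0. Trim23, which ends in an ARF domain, had a log2 fold change of 0.07 (SE 0.13) and Trim13, anchored in the endoplasmic reticulum, one of 0.06 (SE 0.25). Trim3 and Trim2, the neuronal NHL ligases, stood at 0.01 (SE 0.06) and -0.09 (SE 0.09), Trim37, the MATH-domain ligase of centrosomes, at -0.09 (SE 0.04), and Trim45, with a filamin repeat, at 0.11 (SE 0.09). Trim11, Trim41 and Trim39, all with a SPRY domain, stood at 0.10 (SE 0.14), 0.10 (SE 0.08) and 0.01 (SE 0.07). A missed threshold does not show that their levels were equal.

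The remaining 11 members were too low to test: Trim12a, Trim15, Trim29, Trim30d, Trim36, Trim40, Trim43c, Trim62, Trim63, Trim69 and Trim72. Trim12a had 2.04, 2 and 2.01 estimated reads in controls and 13.4, 4.45 and 3 after treatment, so treated replicate 1 carried most of its reads. Trim69 had 5, 1 and 1 reads in controls and 5, 13 and 10 after treatment. With no low-count filter, both were called higher, which brought the rises to 15. Trim40 and Trim72 had only 2 and 3 reads over all controls, and their depth-scaled ratios of treated to control were 2.03 with an exact 95% interval of 0.290 to 22.4 and 2.03 with one of 0.432 to 12.5, which cover counting error only.

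By carboxy end, 11 of the 13 rises were in the SPRY group. Of its 21 tested members 11 rose and 4 fell, but 4 of those 11 did not meet the low-count filter in every control. Among the 17 that passed in both groups 7 rose and 4 fell, and outside the cluster 5 of 15 rose and 4 fell. Among the 16 tested members without a SPRY domain 2 rose, Trim56 and Trim46, and 5 fell. Among the 15 of these that passed in both groups 2 rose and 4 fell. None of the 4 TIF1 genes rose and 3 fell, of which Trim66 did not meet the low-count filter in every treated library. Beside the 19.9% and 18.1% of all genes called higher and lower, these counts are a description, and the difference between the groups was not tested.

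The control levels of risen and fallen genes overlapped. The risen members had a median control level of 1.31 TPM (0.143 to 24.9), the fallen members one of 21.6 TPM (0.33 to 170.5) and the uncalled members one of 15.7 TPM (1.48 to 107.7). A low control level and a rise were tied by the low-count filter in the 4 risen genes that did not meet it in every control. Over the 9 risen and 8 fallen members that passed in every library of both groups the medians were 3.01 and 36 TPM. The same control libraries enter both the control level and the fold change, so level and change are not independent measures in any of these genes. The summed TPM of all 48 members stayed within 784.6 to 854.7 in controls and 811.9 to 857.6 after treatment, and these ranges overlap. Within that sum, the 13 risen genes went from 9.44% (SD 0.639, n = 3) to 25.4% (SD 0.794, n = 3) and the 9 fallen genes from 48.4% (SD 0.983) to 37.2% (SD 0.785). The cluster went from 0.302% (SD 0.114) to 4.32% (SD 0.0861), so even after treatment it was a minor share of TRIM RNA. Trim28 alone held 20.6% in controls and 17.2% after treatment, while Trim25 went from 3.01% to 7.21%. These shares follow from the calls and are a description.

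**Figure D5:**
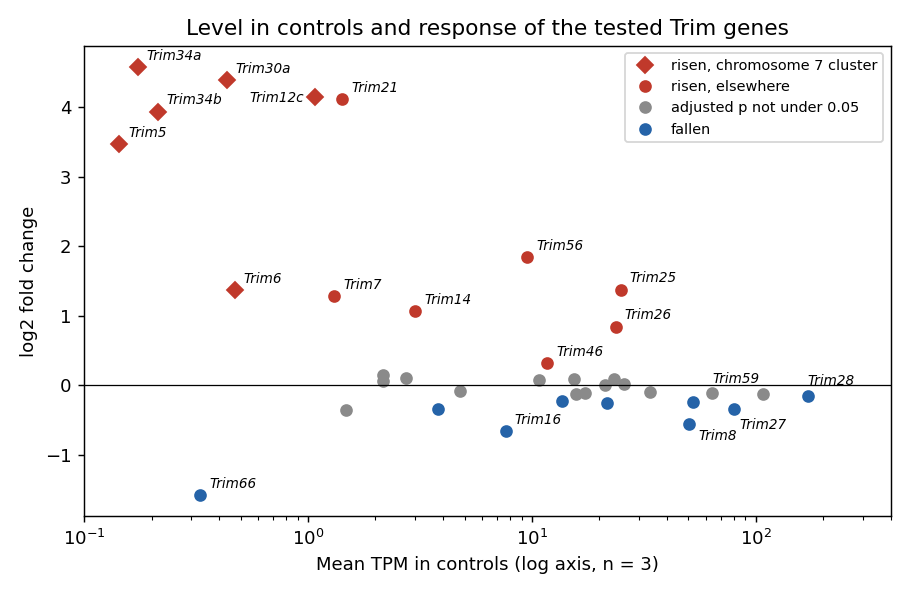
Mean TPM in controls (log axis, n = 3) against the log2 fold change of the 37 tested Trim genes, coloured by call, with diamonds for the chromosome 7 cluster. The largest rises belong to genes under 2 TPM in controls, and genes over 50 TPM were lower or not called.

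A promoter of the RefSeq table was matched for 36 of the 48 members. The ISRE-like pattern was found in 6 of the 12 risen members with a promoter (the 6 with windows above), in 0 of 6 fallen members, in 1 of 10 uncalled members (Trim2) and in 2 of 8 untested members (Trim12a and Trim30d). Of the 6 members that rose at least 4-fold, 5 held it, and Trim34b did not. Among these 6, Trim34a, Trim34b and Trim5 did not meet the low-count filter in every control. The Trim5 and Trim12c windows are nearly the same, so the 5 are not separate cases. Over the whole table it occurs in 3.44% of 32851 promoters and in at least 1 promoter of 3.99% of 27025 genes. Among tested genes with a promoter it was in 7.9% of 1811 risen genes, in 34.6% of 162 risen at least 4-fold, in 2.56% of fallen genes and in 2.82% of those not called. The narrower pattern of GAAAC, any base and GAAA, present in 0.685% of promoters and 0.792% of genes, was found in Trim5, Trim12a, Trim12c, Trim21 and Trim34a. TTCNNNGAA, the core of a GAS element, is in 8.3% of promoters and 9.55% of genes, and was found in Trim15, Trim45 and Trim46. Of these Trim46 rose, so 1 of the 12 risen members held it, and 0 of the 6 that rose at least 4-fold. Among tested genes with a promoter it was in 11.5% of risen genes and in 20.4% of those risen at least 4-fold. The shares were 6.95% of fallen genes and 7.81% of those not called. A match is a description, not a binding site, and a window with no match says nothing about the factor.

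A list of 38 partner genes moved in part. It holds genes of proteins that TRIM ligases act on or with, ubiquitin enzymes, TIF1 partners and TRIM-structured genes not named Trim. Of these, 36 had a row and 35 were tested. Of the tested genes, 12 rose (34.29%, against 19.9% of all genes), 3 fell (8.571%, against 18.1%) and 20 were not called. The list was chosen with earlier results of these data known and includes genes of the interferon response, so these shares are a description. The 8 of smallest adjusted p all rose. Parp9 and Dtx3l, which form a ligase complex in interferon responses, had log2 fold changes of 4.38 (SE 0.05) and 3.95 (SE 0.05), and Ube2l6, the conjugating enzyme for ISG15, one of 3.21 (SE 0.07). Irf7, the interferon regulatory factor, went from a mean of 0.990 CPM (SD 0.217, n = 3) to 30.3 CPM (SD 2.83, n = 3). The RNA sensors Ddx58, the RIG-I target of Trim25, and Ifih1, the MDA5 target of Trim65, had log2 fold changes of 1.96 (SE 0.03) and 2.65 (SE 0.09). Tmem173, which encodes STING, had one of 2.05 (SE 0.06) and Pml, the TRIM-structured organiser of nuclear bodies, one of 0.91 (SE 0.04). The adaptors Mavs and Traf3 and the microtubule-binding ligase Mid1 fell, by 0.24, 0.28 and 0.18 on the log2 scale. The smaller rises were in Zc3hav1, Tbk1, Cbx1 and the conjugating enzyme Ube2d3, at log2 fold changes of 0.66, 0.34, 0.29 and 0.19. Against a change of 1.5-fold these smaller rises were not called, and that of Ube2d3 was called in only 10 of the 16 model alternatives. The 20 partners not called included Irf3, Smad4 and the TAK1 gene Map3k7.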

How the data were processed

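The labels describe 3 control and 3 interferon-gamma libraries of total RNA from IEC 4.1, a mouse line, read on a DNBSEQ instrument. The submitters' processing notes name HISAT, HISAT2, mm10 and GRCm38.p6 without roles; the counting program and strand setting are not given in the sources used here. The deposited read counts are estimated counts: 6.8% to 7.37% of the values in a library were fractional, and all were rounded before the fit. TPM values were deposited beside them per the file headers and served for levels between genes; deposited FPKM values entered no test. All 48 members matched RefSeq by gene identifier. Of these, 10 lie on alternate scaffolds in the deposited tables and took their position from RefSeq.

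edgeR 4.0.16 (R 4.3.3) fitted all genes kept by filterByExpr (minimum count 10) with TMM factors, the robust quasi-likelihood test and Benjamini-Hochberg adjustment over 11423 genes, with a threshold of 0.05. Standard errors come from the replicates' log2 CPM with a prior count of 2 and may understate the error at low counts. On counts simulated from the control levels (11423 genes), the fit found 54% of the genes given a 1.25-fold change. For 1.5-fold it found 92%, for 2-fold 96% and for 4-fold 100%, and 10 of its 181 calls were false. Only 50 genes were changed at each size, with the spread taken from the fitted trend, whereas 38.1% of genes were called in the data. These rates may therefore not hold for the data. DESeq2 1.42.0, limma-voom (limma 3.58.1), other scalings, filters, left-out libraries, a replicate block, a test against 1.5-fold and TPM plus 0.1 were alternatives. Any member could be named, and of the partner list the 8 of smallest adjusted p; the named partners outside those 8, and the chromosome 7 neighbours named, were chosen after their values were seen. The members, the lists and the 4 pairs of TRIM genes compared with each other were chosen with earlier results of these data known. Carboxy-end groups follow the textbook classification. The counts were not stated to use strand, so reads of overlapping genes on opposite strands cannot be told apart.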

Additional observations from a re-analysis of the deposited data

How the results depend on the processing

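The 13 rises, of which 12 were called in each of the 16 model alternatives tried (1 of them, non-robust estimation, was chosen after seeing the data; Trim46 was not, against 1.5-fold), numbered 12 to 15 over them and 13 to 14 with 1 library left out. Falls were less stable: 1 of 9, Trim66, was called in each alternative. Of the members, and equally of those outside the cluster, 14 fell with upper-quartile scaling, 14 with total-count scaling and 1 against 1.5-fold, and 7 to 9 with 1 library left out. Partner genes called higher were 8 against 1.5-fold in place of 12, and 11 to 13 with 1 library left out. Partner genes called lower were 5 with upper-quartile scaling, 6 with total-count scaling, 0 against 1.5-fold and 3 to 5 with 1 library left out (5 without treated replicate 4). The median log2 fold change outside the cluster was -0.16 with total-count scaling. These scalings moved the median of all genes by -0.05 and -0.07 on the log2 scale, and over all genes gave 1775 rises and 2823 falls (upper quartile) and 1644 and 3124 (total counts) in place of 2278 and 2069. By construction the test against 1.5-fold calls fewer small changes, and otherwise the cause was not tested. With the narrower GAS-like motif 0 risen members had a match in place of 1.

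Replicate numbers 2 and 4 occur in both groups. Deviations from the group means correlated at 0.128 for number 2 and -0.0897 for number 4, so the numbers were not taken to pair the libraries. With the replicate block 13 members rose and 7 fell, and 13 partner genes rose and 3 fell. Trim28 (adjusted p = 0.07615), Trim24 (0.1701) and Trim65 (0.09103) were then not called lower and Trim17 was (0.02947), by edgeR. Under the block, Trim11 stood at -0.0354 and Trim3 at -0.0470.

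Sign changes were confined, over the alternatives run, to uncalled members near 0 and are given as log2 fold changes. Trim3 stood at -0.0409 and Trim39 at -0.0458 with upper-quartile scaling, and with total-count scaling Trim3 stood at -0.0589, Trim39 at -0.0646 and Trim13 at -0.0108. On deposited TPM plus 0.1, Trim3 stood at -0.0974 and Trim41 at -0.0799, and Trim11, Trim13, Trim23 and Trim39 were also under 0. With 1 library left out, Trim68 ranged from -0.0163 to 0.2106, Trim11 from -0.0246 to 0.1757, Trim23 from -0.0611 to 0.1523, Trim13 from -0.1285 to 0.2485, Trim3 from -0.0543 to 0.0429 and Trim39 from -0.0477 to 0.0379. Depth limits the genes of few reads: Trim5, Trim34a and Trim34b in controls, and the 11 members not tested.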
